A study of Mus musculus with 12 samples.

Results

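The miRNA family of miR-148 and miR-152 in the mouse liver was followed from the fetus to the young adult. The family is made of mmu-miR-148a, mmu-miR-148b and mmu-miR-152. They were chosen by name, because they share 1 seed, and all 3 were among the 355 mouse microRNA (miRNA) probes of the table. The nanoString nCounter assay used here counts bar-coded probes hybridised to each miRNA, without amplification, and the deposited values were on a log2 scale. Total RNA came from 12 liver samples of C57Bl/6 mice at 4 ages, with 3 livers per age and no genetic or drug treatment named: embryonic day 15.5 (e15.5), with both sexes mixed, and 2, 3 and 7 weeks after birth, all from males. Whether an e15.5 sample was 1 embryo or a pool is not stated. A comparison with e15.5 also compares mixed sexes with males, which cannot be told apart from age. The title of the series links miR-122 to the postnatal rise in hepatocyte ploidy, which falls within these ages.

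A miRNA guides the Argonaute silencing complex to messenger RNAs that pair with its seed, the short stretch near the 5′ end, and so lowers the output of many genes at once. miR-148a is one of the abundant miRNAs of the adult hepatocyte, where it represses transcripts for the LDL receptor and the cholesterol exporter ABCA1. miR-148a and miR-152 are also known to repress the transcript of the maintenance DNA methyltransferase DNMT1, and miR-148b carries the same seed.

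The mature sequences show how little separates the members, which matters for what each probe can tell apart. They are given 5′ to 3′ from RefSeq (GRCm38.p6) with the seed, bases 2 to 8, in capitals. All 3 members were matched. The probe names carry no arm, and the 3p strand was taken as the one that the unsuffixed names stand for. mmu-miR-130a, named again below, is shown because the same 7 bases CAGUGCA open its sequence, shifted by 1 position, so that the seed in capitals there is a different one.
mmu-miR-148a-3p: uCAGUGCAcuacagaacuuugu
mmu-miR-148b-3p: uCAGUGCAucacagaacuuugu
mmu-miR-152-3p: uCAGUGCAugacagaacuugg
mmu-miR-130a-3p: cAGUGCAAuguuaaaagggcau
Only the 3 family members, of 1738 mature entries in the RefSeq table, held CAGUGCA at bases 2 to 8. The same 7 bases stood at bases 1 to 7 of 7 other entries, among them miR-130a, miR-130b and miR-301a. Counting from 1 at the 5′ end, miR-148b differs from miR-148a by C9U and U10C, with 90.9% identity over 22 bases. miR-152 differs from miR-148a by C9U, U10G and U20G, with 85.7% identity over 21 bases, and from miR-148b by C10G and U20G.

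The 3 genes lie on different chromosomes in like surroundings. Mature miR-148a is at chr6:51269829-51269850 on the minus strand, within the predicted gene Gm38821. Mature miR-148b is at chr15:103285185-103285206 on the plus strand, within Copz1. Mature miR-152 is at chr11:96850439-96850459 on the plus strand, within Copz2. Copz1 and Copz2 encode related zeta subunits of the COPI coat, which carries vesicles from the Golgi. In each case a member of the NF-E2 family of transcription factors (Nfe2l3, Nfe2 and Nfe2l1) was the nearest protein-coding neighbour on 1 side, with 0 genes between. A Hox cluster followed on that side, with 5, 4 and 4 protein-coding genes between.

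All 3 members were above the table's floor in all 12 livers, as were 114 of the 355 probes. The summed linear signal of a liver was 148505 to 172057 in the fetus. The range was 486743 to 618776 at 2 weeks. It was 478381 to 539127 at 3 weeks and 236867 to 267915 in the 7-week livers. The 100 brightest probes moved together with it. Their mean log2 value was 1.75 higher at 2 weeks, 1.39 higher at 3 weeks and 0.27 higher at 7 weeks than at e15.5, and the labels do not say how the submitters scaled the samples. Each change is therefore given as deposited and again after subtracting from every liver the mean of its 100 brightest probes (called centring), which include the 3 members. The family members were also compared with each other within each liver, a measure that a factor common to all probes of a sample cannot alter. Quantile normalisation, tried as an alternative, can alter it. Calls are from limma with p-values adjusted over all probes, at a threshold of 0.05, and reflect the spread between these livers only.

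miR-148a rose steeply from the fetal to the young postnatal liver and made the largest change of the family. Its log2 value in the 3 e15.5 livers was 10.32, 9.87 and 9.72. At 2 weeks it was 14.65, 14.18 and 14.51, and at 3 weeks 14.69, 14.78 and 14.65. Every liver of both ages thus lay far above every fetal liver, while the 2-week and 3-week livers overlapped. At 7 weeks the values were 13.40, 13.23 and 13.41, below all 2-week and 3-week livers and above all fetal ones.

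Relative to e15.5, miR-148a was 22.3-fold higher at 2 weeks (log2 change 4.48 ± 0.16 SE, limma adjusted p = 2.67e-09), 26.6-fold at 3 weeks (4.73, adjusted p = 2.33e-09) and 10.4-fold at 7 weeks (3.37, adjusted p = 2.48e-08). Exact two-sided permutation tests of each of these pairs gave 0.1, the smallest p that 3 livers against 3 allow. The rise passed the test after centring too, by 2.73, 3.35 and 3.11 on the log2 scale (limma adjusted p = 3.60e-07, 5.70e-08 and 8.43e-08). In whole tissue, a higher share of hepatocytes and more miR-148a per hepatocyte cannot be told apart.

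Marker miRNAs of several cell types also differed between these ages. The summed signal of 3 hepatocyte miRNAs (miR-122, miR-192, miR-194) was 7.46 to 9.83% of the total at e15.5 and between 29.8 and 40.3% after birth, and none of the 3 was at the floor in any age. The erythroid miRNAs miR-451, miR-144 and miR-486 made up 7.21 to 10.5% at e15.5, when the liver is a blood-forming organ, and 1.01 to 2.30% after birth. As deposited, miR-451 alone of these was called higher at 2 and 3 weeks (log2 change 0.68 and 0.71), and after centring all 3 were called lower at every postnatal age. Their median centred change was -3.79, -2.96 and -4.61 at 2, 3 and 7 weeks. Over the 114 probes always above the floor the median was 0.21, 0.27 and 0.14. Over all 355 probes, many of them at the floor, it was -3.08, -5.11 and -1.29. The 6 leukocyte miRNAs made up 4.0 to 4.85% and then 0.381 to 0.538%, a fall carried by miR-142-3p and miR-223. miR-150 went the other way (16.9-fold higher at 2 weeks, centred log2 change 2.34, limma adjusted p = 1.52e-05), as did miR-342-3p, which no fetal liver showed above the floor. miR-142-5p and miR-155 were not called against e15.5 at any age as deposited. On that scale 2 of the 6 were higher and 2 lower at each postnatal age. Of all 355 probes, 178, 207 and 159 were called in either direction. After centring 2 of the 6 were higher at each age, and 4, 4 and 2 were lower. Of 4 pancreas markers, a tissue also rich in miR-148a, only miR-216a had a probe, at no more than 0.00386% of the signal in any liver, and of 4 skeletal muscle and heart markers miR-133a and miR-206 did, at no more than 0.0217%. The part of this shift in cell types in the rise of miR-148a was not tested.

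Among the postnatal ages the path of miR-148a depended on the scale. As deposited, its level at 3 weeks did not pass the test against 2 weeks (log2 change 0.25, limma adjusted p = 0.452). It was lower at 7 weeks than at 3 weeks (-1.36, adjusted p = 5.17e-05) and than at 2 weeks (-1.11, adjusted p = 0.000209). The 100 brightest probes had moved by -1.12 and -1.48 on average over these pairs. After centring, neither of the 7-week comparisons passed (-0.24, adjusted p = 0.377, and 0.37, adjusted p = 0.124). The centred level at 3 weeks was instead higher than at 2 weeks (0.61, adjusted p = 0.0457), with the values of the 2 ages apart. Centred on the median of the 114 probes above the floor instead, the change was 0.68 and not called (adjusted p = 0.117). The share of all signal that came from this 1 probe was 0.627 ± 0.101% (SD, n = 3) in the fetal livers. At 2 weeks it was 4.23 ± 0.452%, at 3 weeks 5.34 ± 0.559% and at 7 weeks 4.18 ± 0.336%. Its probe was the 28th to 34th brightest in the fetal livers and between the 3rd and the 5th at every later age.

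**Figure D1:**
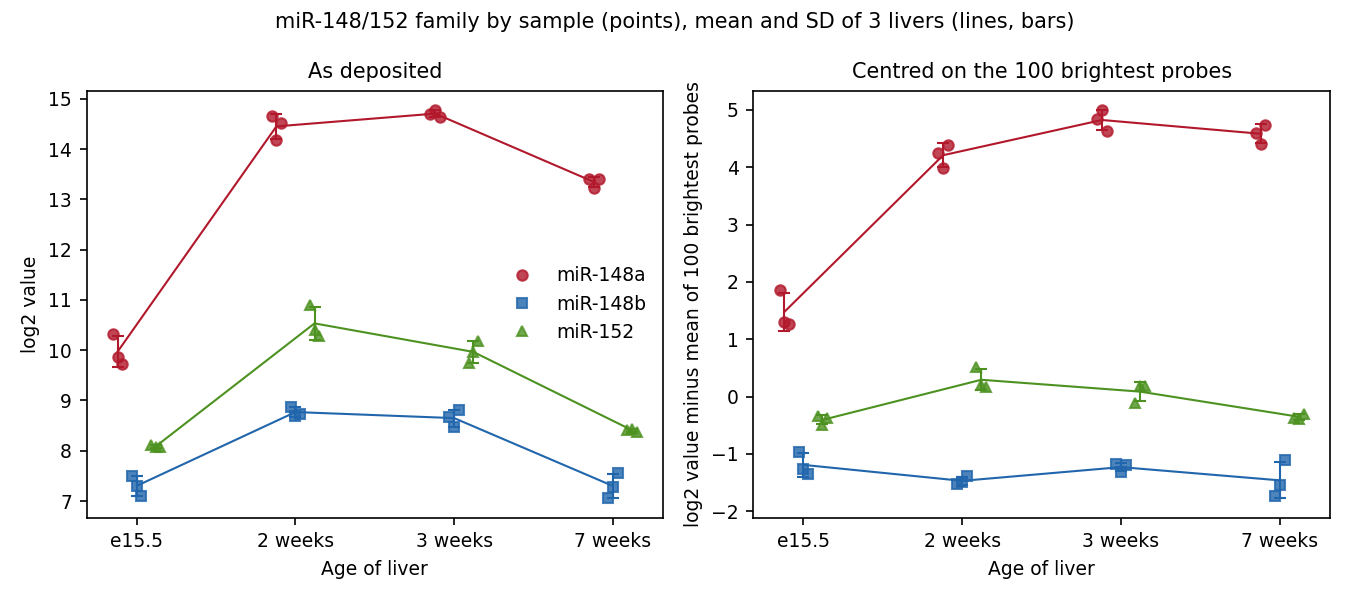
The log2 value of miR-148a (circles), miR-148b (squares) and miR-152 (triangles) in each liver by age, as deposited (left) and minus the mean of that liver's 100 brightest probes (right), with lines and bars for the mean and SD of 3 livers. miR-148a is higher after birth on both panels, whereas miR-148b at 7 weeks is back at its fetal level on the left and shows no called change on the right.

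miR-152 rose less and its deposited level returned close to the fetal one. In the e15.5 livers its log2 value was 8.12, 8.07 and 8.08, the tightest group of the family. The 2-week values were 10.91, 10.40 and 10.29, and the 3-week values were 9.74, 9.97 and 10.19. At 7 weeks they were 8.42, 8.43 and 8.37. Livers of the 4 ages did not overlap for this member, which was highest at 2 weeks, then 3 weeks, 7 weeks and e15.5.

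Relative to e15.5, miR-152 was 5.45-fold higher at 2 weeks (log2 change 2.45 ± 0.16 SE, limma adjusted p = 4.18e-07) and 3.68-fold at 3 weeks (1.88, adjusted p = 3.25e-06). The 7-week difference of 0.32 was not called (adjusted p = 0.159). It fell by 1.56 from 3 to 7 weeks (adjusted p = 2.50e-05) and by 2.12 from 2 to 7 weeks (adjusted p = 1.54e-06). The step from 2 to 3 weeks was small (-0.57, adjusted p = 0.0426), and this call was lost when any of 10 of the 12 livers was left out, with adjusted p up to 0.166.

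Centring kept most of this pattern at a smaller size. The centred change of miR-152 from e15.5 was 0.70 at 2 weeks (limma adjusted p = 0.000700), 0.49 at 3 weeks (adjusted p = 0.00522) and 0.055 at 7 weeks (adjusted p = 0.813). It was called lower at 7 weeks on this scale as well, with centred changes of -0.44 from 3 to 7 weeks (adjusted p = 0.0229) and -0.65 from 2 to 7 weeks (adjusted p = 0.00202). Its share of all signal was 0.169 ± 0.0113% (SD, n = 3) in the fetal livers. At 2 weeks it was 0.280 ± 0.0291%, at 3 weeks 0.20 ± 0.0223% and at 7 weeks 0.136 ± 0.0112%. Sums for other cell types peaked at the same age: the 2 endothelial probes (miR-126-3p and miR-126-5p) made up 2.97 to 3.41%, 7.20 to 8.21%, 5.25 to 5.80% and 4.31 to 4.70% of the signal at the 4 ages in order. The 5 stellate and mesenchymal probes made up 0.894 to 1.05%, 1.08 to 1.29%, 0.787 to 0.893% and 0.584 to 0.639%, with miR-214 at the floor in the 3-week livers. The 5 biliary and epithelial probes made up 0.107 to 0.157%, 0.265 to 0.362%, 0.128 to 0.186% and 0.0515 to 0.0715%, and miR-141 was at the floor in every liver of e15.5, 2 and 7 weeks, as was miR-429 in the 7-week livers. The probes within these sums did not all move alike. From e15.5 to 2 weeks miR-143 and miR-145 rose by 3.16 and 3.34 as deposited. miR-199a-3p and miR-199a-5p rose by 1.31 and 0.87, less than the 1.75 of the 100 brightest probes. miR-214 and miR-200c changed by -1.06 and -0.62, neither called, whereas miR-200b and miR-429 rose by 2.93 and 3.59. The part of these cell types in the course of miR-152 was not tested.

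miR-148b had the smallest deposited rise of the family at 2 and 3 weeks against e15.5, and no change of it passed the test after centring. Its log2 value was 7.50, 7.30 and 7.10 at e15.5. It was 8.88, 8.70 and 8.73 at 2 weeks and 8.67, 8.47 and 8.81 at 3 weeks. The 7-week values were 7.06, 7.28 and 7.55, which overlapped the fetal ones and lay below all those of 2 and 3 weeks.

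As deposited, miR-148b was 2.77-fold higher at 2 weeks than at e15.5 (log2 change 1.47 ± 0.16 SE, limma adjusted p = 2.79e-05) and 2.54-fold higher at 3 weeks (1.35, adjusted p = 4.75e-05). At 7 weeks the change from e15.5 was -0.0027 with a 95% interval of -0.37 to 0.37. It fell by 1.35 from 3 to 7 weeks (adjusted p = 7.53e-05) and by 1.47 from 2 to 7 weeks (adjusted p = 3.21e-05). These steps were close to the mean shift of the 100 brightest probes. After centring the 6 age pairs gave changes between -0.28 and 0.24, with adjusted p from 0.162 to 0.974. The F test of the centred values over 4 ages gave adjusted p = 0.296 (exact permutation p = 0.240), against 1.22e-07 for miR-148a and 0.00117 for miR-152. The share of all signal from miR-148b was 0.0980 ± 0.00662% (SD, n = 3) in the fetal livers. At 2 weeks it was 0.0824 ± 0.00554%, at 3 weeks 0.0801 ± 0.00520% and at 7 weeks 0.0634 ± 0.00687%. Over a total without the 10 brightest probes, which include miR-148a, the order turned: the mean share of miR-148b was 0.166% in the fetal livers and 0.245%, 0.294% and 0.219% at the later ages.

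The members' calls stood beside frequent calls in the whole table. As deposited, all 3 members were called higher at 2 and at 3 weeks than at e15.5, as were 28.2% and 25.6% of all probes, and 1 of 3 at 7 weeks, as were 18.6%. From 2 to 3 weeks 1 member was called lower, as were 15.5% of probes. All 3 members were called lower at 7 weeks than at 3 weeks, as were 29.6% of all probes, and than at 2 weeks, as were 36.1%. After centring, miR-148a and miR-152 were called higher at 2 and 3 weeks than at e15.5, beside 19.2% and 18% of probes, and miR-148a alone at 7 weeks, beside 17.5%. For the centred rise of miR-148a from 2 to 3 weeks the share was 2.54%. For the centred falls of miR-152 to 7 weeks it was 10.1% (from 3 weeks) and 16.3% (from 2 weeks).

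Over all 4 ages as deposited, the limma F test called all 3 members (adjusted p = 3.32e-09 for miR-148a, 1.29e-05 for miR-148b and 5.51e-07 for miR-152), beside 54.4% of probes. Exact permutation of the livers gave p = 0.00013, 0.00487 and 6.49e-05 in the same order, the last being the smallest that 369600 arrangements allow. Over the 3 postnatal ages the F test again called all 3 as deposited (adjusted p = 8.42e-05, 4.57e-05 and 3.89e-06), beside 41.7% of probes. After centring, the postnatal F test gave adjusted p = 0.0495 for miR-148a, 0.479 for miR-148b (not called) and 0.00501 for miR-152.

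**Figure D2:**
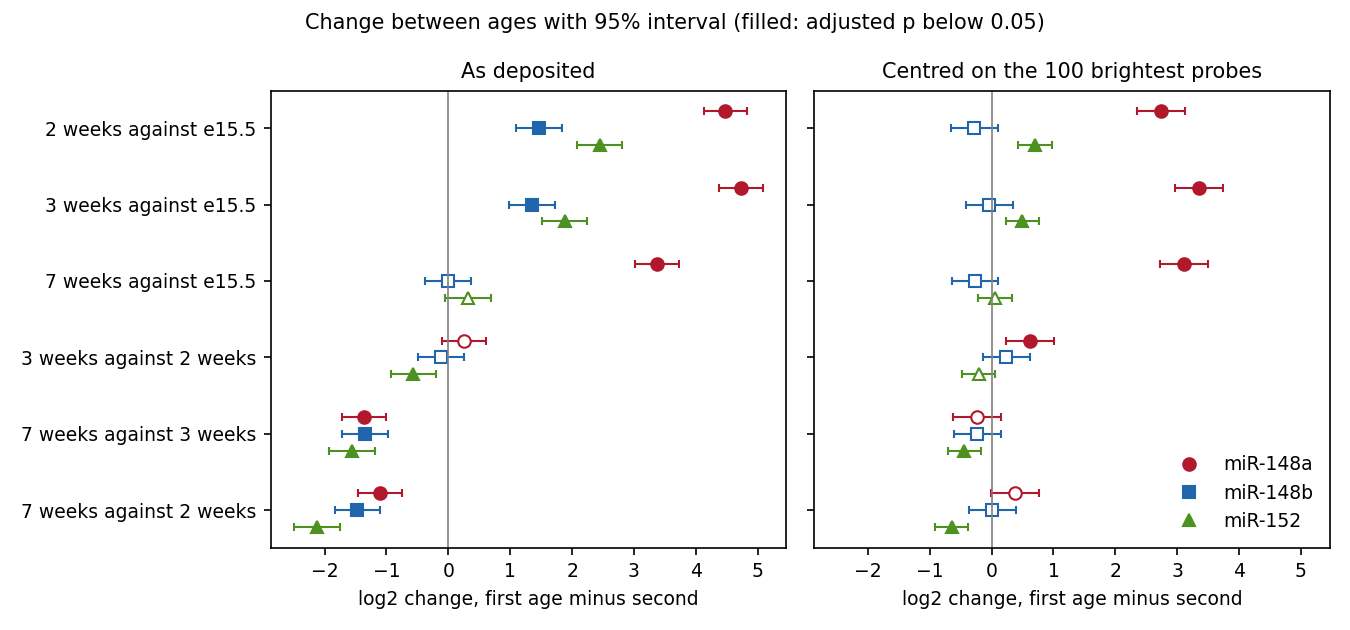
The log2 change (first age minus second) of each family member for the 6 pairs of ages, as deposited (left) and centred on the 100 brightest probes (right), with bars for the 95% interval from limma and filled symbols for adjusted p below 0.05. After centring the intervals of miR-148b include 0 in all 6 pairs, while those of miR-148a lie above 2 in the 3 comparisons with e15.5.

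Within each liver, the gap between miR-148a and its relatives widened between the fetal and the postnatal liver. The log2 value of miR-148a minus that of miR-148b was 2.82, 2.57 and 2.61 in the e15.5 livers. The 2-week differences were 5.78, 5.48 and 5.78. Those of the older livers were 6.02, 6.31 and 5.84 at 3 weeks, and 6.34, 5.95 and 5.85 at 7 weeks. No fetal liver overlapped a postnatal one. Since probes can differ in how well they bind, only the change of such a difference with age is read here, not its size at 1 age.

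From e15.5, miR-148a rose 8.06-fold more than miR-148b at 2 weeks (log2 difference of changes 3.01, limma adjusted p = 1.35e-07), 10.5-fold more at 3 weeks (3.39, adjusted p = 4.84e-08) and 10.4-fold more at 7 weeks (3.38, adjusted p = 2.23e-08). Relative to miR-148b, 20.1%, 17.2% and 18.9% of the other probes were called higher in these comparisons. Between postnatal ages no change of this difference was called. From 3 to 7 weeks it was -0.0097, with a 95% interval from -0.36 to 0.34, so that the fall of both members over this span was the same within that interval.

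The gap between miR-148a and miR-152 opened in more than 1 step. It was 2.21, 1.80 and 1.64 at e15.5 and 3.75, 3.78 and 4.22 at 2 weeks. At 3 weeks it was 4.95, 4.81 and 4.46, and at 7 weeks 4.98, 4.79 and 5.04. The 2-week livers lay between the fetal and the older ones without overlap, whereas the 3-week and 7-week livers overlapped. From e15.5 the difference grew by 2.03 at 2 weeks (limma adjusted p = 5.94e-06), 2.85 at 3 weeks (adjusted p = 2.66e-07) and 3.05 at 7 weeks (adjusted p = 1.38e-07), and 13.3%, 14.4% and 16.9% of other probes were called higher relative to miR-152.

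After birth the same gap grew from 2 to 3 weeks (0.82, limma adjusted p = 0.0123) and from 2 to 7 weeks (1.02, adjusted p = 0.00148), beside 4.24% and 24.9% of probes. The first of these calls was lost, with adjusted p up to 0.0587, when mouse 1 or 2 of the 2-week or of the 3-week group was left out. From 3 to 7 weeks the change was 0.20 and not called (adjusted p = 0.416).

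miR-152 in turn rose more than miR-148b by 2 weeks. Their difference was 0.61, 0.77 and 0.97 in the fetal livers and 2.03, 1.70 and 1.56 at 2 weeks. At 3 weeks it was 1.07, 1.5 and 1.38, and at 7 weeks 1.36, 1.15 and 0.82. The 2-week livers were above all others, and the 7-week livers overlapped both the fetal and the 3-week ones. The change from e15.5 was 0.98 at 2 weeks (limma adjusted p = 0.00175) and 0.53 at 3 weeks (adjusted p = 0.0354). From 2 to 7 weeks the difference fell by 0.65 (adjusted p = 0.0296), as seen from miR-148b, relative to which 14.4% of probes were called lower over this span. The 3-week call was lost without e15.5 mouse 1 or 2 or 3-week mouse 2 or 3 (adjusted p up to 0.103), and the last without 2-week mouse 1 or 2 or 7-week mouse 2 or 3 (adjusted p up to 0.0919).

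Exact permutation tests over the 4 ages gave p = 0.0039 for the difference of miR-148a and miR-148b, 0.000584 for miR-148a and miR-152 and 0.00448 for miR-152 and miR-148b, adjusted over these 3 pairs. Over the 3 postnatal ages the adjusted permutation p was 0.143, 0.0321 and 0.0589 in the same order.

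**Figure D3:**
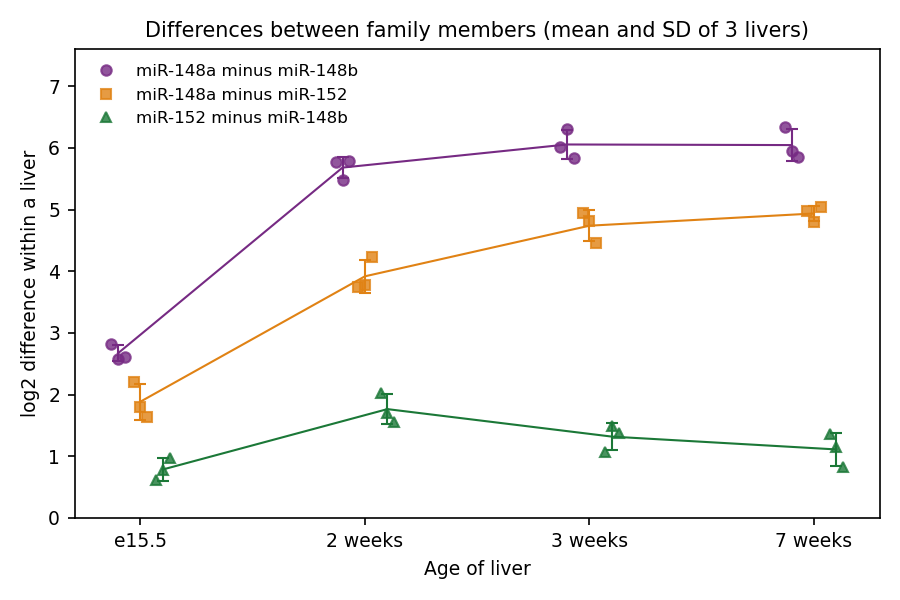
The log2 difference within each liver between pairs of family members by age (points), with lines and bars for the mean and SD of 3 livers. A factor common to all probes of a liver leaves these values unchanged, whereas quantile normalisation altered them. The difference of miR-148a and miR-148b goes from 2.67 at e15.5 to 5.68 at 2 weeks and stays near 6 afterwards, and that of miR-148a and miR-152 goes from 1.88 to 3.92, 4.74 and 4.94.

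Because miR-148a and miR-148b differ at bases 9 and 10 alone, any signal of miR-148a on the other probes would bear on them most where miR-148a is abundant. The linear value of miR-148b was 14.2 to 16.8% of that of miR-148a in the fetal livers. It was 1.82 to 2.24% of it at 2 weeks, then 1.26 to 1.75% and, at 7 weeks, 1.24 to 1.73%. For miR-152 the same ratio was 21.7 to 32.0%, 5.36 to 7.45%, 3.24 to 4.55% and 3.05 to 3.60%. No file bears on cross-hybridisation, which was not tested. If 1% of the miR-148a value were taken from the other members, a setting added after the data were seen, the deposited change of miR-148b from e15.5 would be 0.51 at 2 weeks (limma adjusted p = 0.318), -0.23 at 3 weeks (adjusted p = 0.669) and -1.58 at 7 weeks (adjusted p = 0.0133). With 0.5% taken, no call of a single member changed.

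The rise of miR-148a was set beside other miRNAs known for the adult hepatocyte, a list of 11 probes that holds miR-148a itself. All 11 were called higher at 2, 3 and 7 weeks than at e15.5 as deposited, and 10, 10 and 11 after centring, beside 28.2%, 25.6% and 18.6% of all probes as deposited and 19.2%, 18% and 17.5% after centring. The exception was miR-193b (0.11 at 2 weeks, adjusted p = 0.667, and 0.37 at 3 weeks, adjusted p = 0.189). The list's median log2 change was 3.81, 3.90 and 3.03. The median over all 355 probes, many of them at the floor, was -1.34, -3.73 and -1.02, and over the 114 probes always above the floor it was 1.96, 1.65 and 0.41. miR-802, miR-101a and miR-193 were at the floor in all 3 fetal livers, so that no fold is given for them.

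Among the 7 other list members above the floor in every liver, the rise from e15.5 was smaller than that of miR-148a for 5 at 2 weeks, 7 at 3 weeks and 2 at 7 weeks, and larger for 0. miR-802, miR-101a and miR-193 were left out of this count, because all their fetal values were at the floor. The floor value sets the size of their rise. Their calls as larger than miR-148a at each of these ages are therefore not read as a comparison. All these calls are from limma on differences within a liver. Of all other probes, those at the floor included, 72.6%, 81.1% and 53.4% were called as changing less than miR-148a at those ages. miR-122, the most abundant hepatocyte miRNA, rose by 3.70, 3.87 and 2.60 as deposited, less than miR-148a by a log2 difference of -0.78, -0.86 and -0.77 (adjusted p = 9.81e-05, 3.67e-05 and 0.000104). Between postnatal ages the differences of miR-122 from miR-148a were between -0.083 and 0.092 (adjusted p from 0.604 to 0.961).

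miR-194, which is made in part from the same transcript as miR-192, did not differ in its rise from miR-148a at 2 weeks beyond the spread (-0.49, limma adjusted p = 0.0732), but rose less by 3 weeks (-0.83, adjusted p = 0.00819). miR-22 rose less at 2 and 3 weeks (-0.67, adjusted p = 0.00645, and -0.79, adjusted p = 0.00201). At 7 weeks its change from e15.5 was 0.19 apart from that of miR-148a (adjusted p = 0.346), and from 3 to 7 weeks it fell less, by 0.99 (adjusted p = 0.00196). miR-193b rose least of the 7, with differences of -2.62, -2.98 and -2.39 at the 3 ages.

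Between postnatal ages the direction of the list depended on the scale. From 2 to 3 weeks limma called 0 of 11 as deposited, beside 56 of all 355 probes, 55 of them lower. miR-802 and miR-193, 2 of 11, had an unadjusted p under 0.05 (medians 0.17 for the list and -0.31 for the 114 probes). Of the list, 4 were higher after centring, beside 2.54% of all probes. From 3 to 7 weeks all 11 changes were negative as deposited and 7 were called lower, beside 29.6% of all probes. After centring 2 were higher and 1 lower, beside 17.7% and 10.1%. From 2 to 7 weeks 6 were lower and 0 higher as deposited, beside 36.1% and 7.32%, and after centring 4 were higher and 0 lower, beside 13.8% and 16.3%.

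The family was also set beside miR-29a, miR-29b and miR-29c, which are known to repress transcripts of other DNA methyltransferases, the de novo enzymes. DNMT1 is the known target of miR-148a and miR-152, and miR-148b shares their seed. Of these 6 miRNAs all were called higher at 2 and 3 weeks than at e15.5 as deposited (5 after centring, all but miR-148b), and 4 at 7 weeks on both scales, namely miR-148a and the 3 miR-29 members. The shares of all probes called higher were those given for the hepatocyte list, 28.2%, 25.6% and 18.6% as deposited and 19.2%, 18% and 17.5% after centring. The median of the 6 was 3.14, 3.47 and 3.53, beside the medians of all probes given above.

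From 2 to 7 weeks the miR-29 members and the family moved apart. As deposited, the 3 family members were called lower and miR-29a, miR-29b and miR-29c higher, by 0.36, 1.07 and 1.12 (limma adjusted p = 0.0125, 0.00215 and 8.19e-06), beside 7.32% of all probes called higher. After centring the 3 miR-29 members were still called higher, beside 13.8% of probes, and of the family miR-152 alone was called lower. Within each liver, the change of miR-29a exceeded that of miR-148a by 1.47, that of miR-29b by 2.18 and that of miR-29c by 2.23 over this span, all called, beside 9.89% of other probes. From 3 to 7 weeks the excess was 1.53, 1.95 and 1.71, all called as well, beside 18.4%. The share of probes called higher over that span as deposited was 11.8%, and miR-29b and miR-29c were among them.

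**Figure D4:**
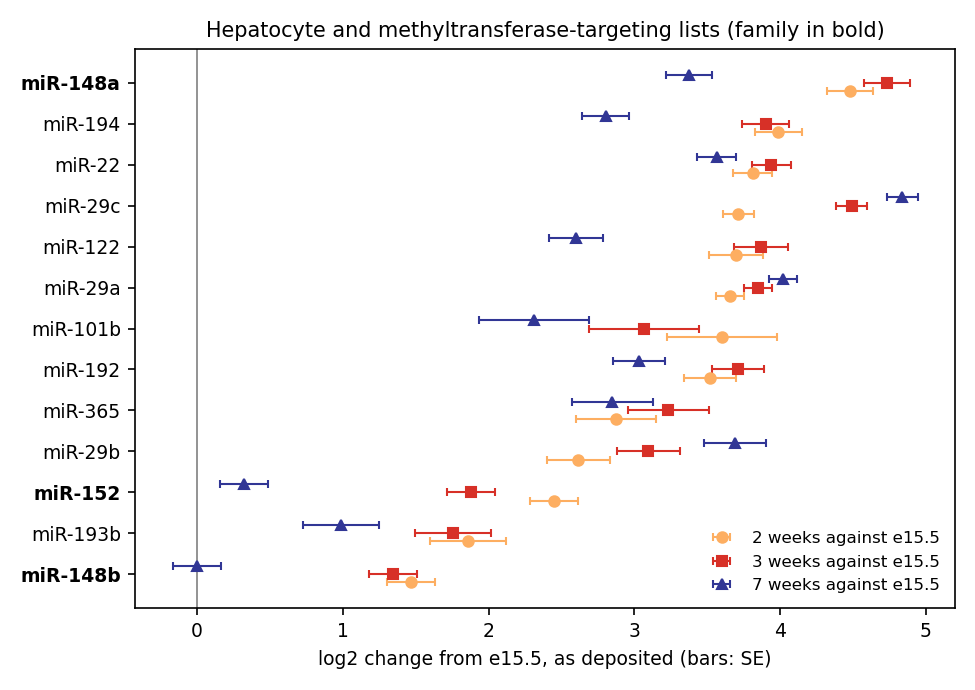
The log2 change from e15.5 (deposited scale, bars for SE) at 2, 3 and 7 weeks for the family (bold), the other hepatocyte miRNAs above the floor in every liver, and the miR-29 members; the 3 probes at the floor at e15.5 are not drawn. At 2 and 3 weeks miR-148a has the highest change of those drawn, and at 7 weeks miR-29c does, while miR-148b and miR-152 lie near 0.

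By their course over the 12 livers the members had different nearest probes among the 113 others above the floor throughout. These correlations are descriptions, and the fetal livers stand apart from the postnatal ones, so each r includes the step between them and the shift common to the bright probes. miR-148a was most like miR-122 (Pearson r = 0.996, n = 12), let-7g (0.994), miR-23b (0.990), miR-194 (0.988) and miR-23a (0.984), and after centring the first 4 kept their places (0.993, 0.990, 0.983 and 0.977) with miR-154 next (0.975). miR-152 was most like miR-28 (0.985), let-7e (0.978), miR-130a (0.975), miR-188-5p (0.971) and miR-107 (0.970). After centring its nearest were miR-107 (0.826), miR-130a (0.806), miR-28 (0.800), miR-200b (0.787) and let-7e (0.787).

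miR-148b was most like miR-130a (r = 0.971, n = 12), the miRNA whose first 7 bases are the family seed, then let-7e (0.971), miR-340-5p (0.965), miR-152 (0.960) and miR-1937c (0.951). After centring, when no change of miR-148b was called, its nearest were miR-185 (0.685), miR-140 (0.622), miR-1937c (0.585), miR-106b (0.529) and miR-93 (0.496). Within the family, r was 0.757 for miR-148a and miR-148b, 0.805 for miR-148a and miR-152 and 0.960 for miR-148b and miR-152 as deposited. After centring these were -0.28, 0.52 and -0.16. The median r of miR-148a with all 113 probes was 0.757 as deposited, so that its r with miR-148b was that median and its r with miR-152 was close to it. The medians for miR-148b and miR-152 were 0.732 and 0.795, and after centring the 3 medians were 0.092, -0.024 and 0.127.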

How the data were processed

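The authors deposited 1 table of log2 values from the nCounter mouse miRNA assay, with 355 probes and 12 samples. Partek 6.6 is the tool named, per the submitters' processing notes; background subtraction and scaling are not given in the sources used here. Trizol RNA was used, per the labels' protocols. Each column's lowest value, -9.97 on the log2 scale (0.001 linear), was taken to mean no signal above background. The depth in raw counts is unknown, and the summed linear signal per sample (148505 to 618776) is given instead.

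The deposited values entered limma 3.58.1 under R 4.3.3, with a mean for each age over the 12 samples and a trend in the variances (lmFit, contrasts, eBayes). Its two-sided p-values were Benjamini-Hochberg adjusted over 355 probes, separately for each pair of ages. The same fit was run on every probe minus 1 family member in the same liver (354 probes). Exact permutation tests went through all arrangements with numpy 2.4.6, and scipy 1.17.1 adjusted their p-values over the pairs of members. The steps were tested on simulated data. Figures used matplotlib 3.10.9.

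Same-numbered mice of different ages did not deviate together (r from -0.41 to 0.52 over 18 pairs, 7 above 0.1), so the numbers were not taken as pairs. Members, lists and the rule for named probes (members, both lists, and the 5 probes nearest each member by Pearson r) were chosen with earlier results of these data known. Alternatives were centring, quantile normalisation, a filter on dim probes, pseudocounts, no variance trend, fits to the 2 ages of a pair alone, a block for the mouse number, and leaving out each liver.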

Additional observations from a re-analysis of the deposited data

How the results depend on the processing

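The rises of miR-148a from e15.5 and the growth of its difference from miR-148b and from miR-152 in those comparisons kept direction and call under every alternative run. Centring on the 100 brightest probes gave, for miR-148b against e15.5, -0.28 (2 weeks) and -0.039 (3 weeks). Further values were 0.61 (miR-148a) and -0.21 (miR-152) at 3 against 2 weeks, -0.24 (miR-148a) and -0.23 (miR-148b) at 7 against 3 weeks, and 0.37 (miR-148a) and 0.0087 (miR-148b) at 7 against 2 weeks. Of these values only the 0.61 was called. Centring on the median of the 114 probes gave, in the same order, -0.30, 0.00079, 0.68 (not called, adjusted p = 0.117), -0.14, -0.29, -0.28, 0.39 and 0.021. None of the others was called either. Quantile normalisation gave 0.66 for miR-148b and 0.62 for miR-152 at 7 weeks against e15.5, both called. It gave -0.18 for miR-152 at 3 against 2 weeks, -0.42 (miR-148a) and -0.31 (miR-148b) at 7 against 3 weeks, and -0.077 (miR-148a) and 0.069 (miR-148b) at 7 against 2 weeks. None of the latter values was called, so that these deposited calls were lost. It also gave 0.10 for the difference of miR-152 and miR-148b at 3 weeks against e15.5 and -0.71 at 7 against 2 weeks, and 0.52 for that of miR-148a and miR-152 at 3 against 2 weeks. These calls were lost as well (limma adjusted p = 0.754, 0.0623 and 0.138). The cause of these differences was not tested.

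Without a variance trend the values stayed but 4 calls were lost: miR-152 at 3 against 2 weeks (-0.57, limma adjusted p = 0.158), the difference of miR-148a and miR-152 there (0.82, adjusted p = 0.0835), and that of miR-152 and miR-148b at 3 weeks against e15.5 (0.53, adjusted p = 0.0931) and at 7 against 2 weeks (-0.65, adjusted p = 0.105). With only the ages compared, miR-152 was called at 7 weeks against e15.5 (0.32, adjusted p = 0.00283) and not at 3 against 2 weeks (-0.57, adjusted p = 0.195). With the mouse number as a block, 3 calls were lost: miR-152 at 3 against 2 weeks (-0.57, adjusted p = 0.0918) and the difference of miR-152 and miR-148b at 3 weeks against e15.5 (0.53, adjusted p = 0.0608) and at 7 against 2 weeks (-0.65, adjusted p = 0.0590). The block moved no count of calls over all probes by more than 1.5 times.

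Subtracting a share of the miR-148a signal was chosen after seeing the data. With 1%, miR-148b became 0.51, -0.23 and -1.58 at 2, 3 and 7 weeks against e15.5. The difference of miR-152 and miR-148b became 1.43 at 7 weeks against e15.5 (limma adjusted p = 0.0332) and -0.33 at 7 against 2 weeks (adjusted p = 0.621). With 0.5% the last was -0.62 (adjusted p = 0.107). Leaving out each liver in turn gave 0.31 to 0.34 for miR-152 at 7 weeks against e15.5 (called without 2-week mouse 1, adjusted p = 0.0382) and -0.69 to -0.38 at 3 against 2 weeks. The difference of miR-148a and miR-152 at 3 against 2 weeks was 0.72 to 0.97, and that of miR-152 and miR-148b was 0.44 to 0.65 at 3 weeks against e15.5 and -0.78 to -0.51 at 7 against 2 weeks. Over a total without the 10 brightest probes the share of miR-148a was 1.07%, 12.6%, 19.6% and 14.4%, and that of miR-152 0.285%, 0.836%, 0.736% and 0.470% (in order of age). The counts of both lists against e15.5 stayed within 1.5 times under all settings run. Between postnatal ages they moved more: of the hepatocyte list at 7 against 3 weeks, 1 was lower after either centring or quantile normalisation and 4 without a variance trend or without 3-week mouse 3 or 7-week mouse 1, in place of 7. At 7 against 2 weeks, 0 were lower and 4 to 6 higher after those scalings, in place of 6 lower. The miR-29 members called higher at 7 against 3 weeks numbered 0 to 2 when livers were left out.

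Pseudocounts of 1 and 10 and the filter on the upper 50% of probes changed no call of a member or of a difference between members. With 3 livers per age, and no raw counts, small postnatal changes are the least certain.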
